A study of Mus musculus with 21 samples.

Results

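The regions described here are the T peaks of NotoPdiff cultures that shared at least 1 bp with a Foxa2 peak of the same kind of culture. They were selected on the peak calls themselves, so the overlap is what defines them and not a finding. Of 6875 T peaks, 1391 met the rule (20.2%, 95% Wilson interval 19.3 to 21.2%), and they met 1392 of the 22684 Foxa2 peaks (6.14%, 5.83 to 6.46%) in 1393 pairs. The other 5484 T peaks are called T-only and the other 21292 Foxa2 peaks Foxa2-only. The genes nearest to the shared peaks were then followed through 9 RNA-seq libraries.

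NotoPdiff cells are notochord progenitor-like cells grown from F1G4 mouse ES cells that carry TRE::Foxa2-IRES-EGFP at the Rosa26 locus and 2 BACs, T::H2B-mCherry-T2A-irTA and Noto::H2B-mTurquoise. In this line the T promoter drives the transactivator, and doxycycline, given at 1 ng/ml from day 2 to day 4 in medium with CHIR99021, switches Foxa2 on in cells that express T. MPdiff (mesoderm progenitor-like) and NMPdiff (neuro-mesodermal progenitor-like) cells come from the same modified line. All cultures received bFGF at 10 ng/ml. Embryonic cells came from embryos made with F1G4 cells carrying T::H2B-Venus, Noto::H2B-mCherry and Foxa2::H2B-mTurquoise BACs, by tetraploid complementation in the labels and by diploid aggregation in the study's description of this line. NotoP (caudal ends) and trunk notochord cells (trunk Noto) were sorted as positive for all 3 reporters and MP cells as positive for T alone, from pooled embryos at E8.5 or E9.5. For RNA, the cultures were sorted as well, NotoPdiff cells as positive for T and Noto, and MPdiff and NMPdiff cells as positive for T and negative for Noto. The gates therefore bear on the levels of their reporter genes (*Noto*, *T* and, in embryos, *Foxa2*), although all groups were sorted as positive for T. The BACs bring extra copies of the reporter loci, and the FPKM of *Foxa2* in culture may include the transgene. ChIP was done on whole, unsorted NotoPdiff cultures and not on embryos. The culture and embryonic RNA libraries were sequenced on different instruments, so differences were taken within each system.

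T (brachyury) is the founding T-box transcription factor and is needed for posterior mesoderm and for the notochord. Foxa2 is a forkhead factor of the node, notochord, floor plate and endoderm that can bind its sites in closed chromatin. Both factors are present together in the notochord, the axial rod that secretes Sonic hedgehog and BMP antagonists to pattern the neural tube and somites.

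The summit of a peak is the base with the highest ChIP signal. The 101 bases around the T summit are shown for shared peaks that represent the sequences met in this set, from RefSeq's copy of the GRCm38 (mm10) genome on the plus strand, 5′ to 3′. Capitals mark exact matches, on either strand, to the T words GGTGTGA and GTGTGAA and to the forkhead words TGTTTAC and TATTTAC and TGTTTGC. The reverse complements read TCACACC and TTCACAC for T and, for forkhead factors, GTAAACA or GTAAATA or GCAAACA. The Efnb2 peak is shown because it held both kinds of word, and its overlapping T words appear as a run of capitals. The Samd3, Slit2 and Sox9 peaks held a T word, and these nearest genes were high in notochord cells. The Samd3 peak lay 1.36 kb from the start, but the Slit2 peak shown lay 503 kb and the Sox9 peak 152 kb away. The Nog, Bicc1, Sox2, Flrt3 and Gbx2 peaks held forkhead words. The Krt73 and Sgk2 peaks were among the strongest for both factors. The Noto and Foxa2 peaks stand for the commonest case, in which none of these exact words was found.
Efnb2, chr8:8509377-8509477: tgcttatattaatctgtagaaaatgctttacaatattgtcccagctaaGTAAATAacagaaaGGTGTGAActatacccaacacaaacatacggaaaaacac
Samd3, chr10:26228292-26228392: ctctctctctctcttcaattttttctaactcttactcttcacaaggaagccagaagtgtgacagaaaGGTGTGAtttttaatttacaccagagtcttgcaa
Slit2, chr5:47480148-47480248: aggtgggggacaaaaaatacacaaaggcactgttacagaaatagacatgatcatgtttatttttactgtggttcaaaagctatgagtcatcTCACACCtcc
Sox9, chr11:112933787-112933887: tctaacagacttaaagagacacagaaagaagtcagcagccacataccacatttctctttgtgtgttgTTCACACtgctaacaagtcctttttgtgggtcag
Nog, chr11:89477140-89477240: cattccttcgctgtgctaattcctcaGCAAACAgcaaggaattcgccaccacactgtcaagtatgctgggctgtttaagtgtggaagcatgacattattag
Bicc1, chr10:71197457-71197557: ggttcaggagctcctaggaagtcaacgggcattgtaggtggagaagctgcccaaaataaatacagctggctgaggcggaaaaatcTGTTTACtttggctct
Sox2, chr3:34666032-34666132: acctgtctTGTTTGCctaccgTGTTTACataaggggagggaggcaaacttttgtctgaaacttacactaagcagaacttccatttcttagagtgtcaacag
Flrt3, chr2:140966920-140967020: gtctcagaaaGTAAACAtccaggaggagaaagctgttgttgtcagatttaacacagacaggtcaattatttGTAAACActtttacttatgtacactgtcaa
Gbx2, chr1:89885910-89886010: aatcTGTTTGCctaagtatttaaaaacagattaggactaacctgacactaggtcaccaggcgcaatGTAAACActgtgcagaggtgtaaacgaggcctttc
Krt73, chr15:101806512-101806612: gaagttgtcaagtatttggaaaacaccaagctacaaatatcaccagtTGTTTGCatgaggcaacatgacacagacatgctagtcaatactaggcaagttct
Sgk2, chr2:162990032-162990132: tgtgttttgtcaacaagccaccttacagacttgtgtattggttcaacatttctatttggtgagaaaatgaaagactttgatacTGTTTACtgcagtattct
Noto, chr6:85415882-85415982: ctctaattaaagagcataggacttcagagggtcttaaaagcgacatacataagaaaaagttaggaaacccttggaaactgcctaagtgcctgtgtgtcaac
Foxa2, chr2:148046769-148046869: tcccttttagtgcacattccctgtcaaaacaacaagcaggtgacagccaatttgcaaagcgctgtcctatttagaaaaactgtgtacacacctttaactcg

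Every group has 1 library, so no difference between libraries has a replicate check, and no SD or p-value is given. Intervals of shares are Wilson intervals, those of differences combine them by Newcombe's method, and those of medians come from order statistics. They cover counting error over peaks or genes only, and neighbouring peaks are not independent. The FPKM table and peak lists keep no read totals, so the depth behind a single value cannot be read from them. In E8.5 MP cells 58.1% of genes were listed at 0, against 44.7 to 51.7% in the other embryonic libraries, and a value of 0 there does not show that a gene was silent. For this library the study lists the fewest sorted cells and mapped reads of the embryonic RNA libraries. The summed FPKM of 6 notochord markers (*T*, *Noto*, *Foxa2*, *Shh*, *Chrd* and *Nog*) was 592 in NotoPdiff and 29.1 in MPdiff, and that of 4 mesoderm markers was 75.4 and 153. *T* alone gave 375 and 25.8 of the notochord sums. *Noto* was a sort reporter that differed between these cells and *Foxa2* was induced, so their part of the sums follows from the design. Both kinds of cells were sorted as positive for T, and what set the difference in *T* was not tested. Of the other notochord markers, *Shh* had 30.2 and 0, *Chrd* 28.5 and 0.186, and *Nog* 40.1 and 1.83. The 3 endoderm markers summed to 11.6 in NotoPdiff and 1.88 in MPdiff, and the part of such cells in the ratios below was not tested. In these bulk libraries, fewer cells of a type and less RNA per cell cannot be told apart.

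Extreme read pileups made up 7 of the shared peaks and are set apart before the results, by lying on the mitochondrial genome or by a −log10 q above 500. On nuclear chromosomes there were 4, with a T −log10 q of 22300 at chr2:98666291-98667318, 4310 at chr14:19416901-19419222, 3480 at chr9:35305225-35305592 and 510 at chr9:3000020-3002580. The other 3 lay on the mitochondrial genome. Among the remaining 1384 shared peaks the largest −log10 q was 368 for T and 280 for Foxa2. Leaving the 7 out moved none of the 10 main shares, counts and medians for which it was run beyond its interval, among them the promoter, word and gene shares and the summit distance.

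Shared peaks overlapped deeply rather than at their edges. The median overlap was 337 bp (quartiles 289 and 403 bp), which covered 85.6% of the T peak (quartiles 69.2 and 100%). The member with the smallest overlap, 4 bp, lay at chr6:145248078-145248449 with fold enrichments of 8.28 for T and 8.00 for Foxa2, followed by members with 23, 24, 25 and 28 bp. The T-only peak that came nearest to qualifying lay 4 bp from a Foxa2 peak, at chr7:40815809-40816112 with a fold enrichment of 4.91, and the next had gaps of 6, 10, 13 and 18 bp. Few peaks sat at this border, since 10 shared peaks overlapped by less than 50 bp and 11 T-only peaks had a gap under 50 bp.

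Fold enrichment, the ChIP signal at the summit over the local background, described the members as follows. The smaller of both fold enrichments had a median of 6.50 (quartiles 5.36 and 8.22) and reached at least 10 in 174 shared peaks. The T and Foxa2 values of a shared peak were hardly related, with a Spearman correlation of 0.0246 over 1391 peaks that come from the same pair of libraries. Foxa2 enrichment was above T enrichment in 743 of them (53.4%, 50.8 to 56.0%). When the T list was ranked by fold enrichment and cut into 4 parts of like size, the shared portion was 16.1% in the weakest part (14.5 to 17.9%), then 19.1% and 21.9%, and 23.8% in the strongest (21.8 to 25.9%). In the Foxa2 list the same shares were 3.63%, 5.10%, 5.91% and 9.91%. These values come from the lists that chose the members and are given as a description.

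The strongest shared peaks, ranked by the smaller enrichment after the pileups, lay nearest to genes of many kinds. At *Krt73*, a hair follicle keratin, the peak at chr15:101806293-101806792 was enriched 21.6-fold for T and 22.4-fold for Foxa2 and lay 4.22 kb upstream of the start. *Krt73* was listed at 0 in all 9 RNA libraries. At *Sgk2*, a serine/threonine kinase gene, the peak at chr2:162989779-162990303 was enriched 19.0-fold and 23.9-fold, and *Sgk2* reached 0.667 FPKM in NotoPdiff cells. The peak 89.4 kb upstream of *Igfbp3*, which encodes a binding protein of insulin-like growth factors, was enriched 18.4-fold and 19.1-fold. *Igfbp3* had 29.8 FPKM in NotoPdiff, 6.78 in MPdiff and 94.1 in NMPdiff. The remaining 7 peaks were nearest to *Man1a*, *Cd83*, *Lca5*, *Nup205*, *Fgf14*, *Cdh26* and *Topaz1*. The summit windows at *Fgf14*, *Cdh26* and *Topaz1* consist of tandem repeats, that at *Fgf14* of copies of the telomere repeat ttaggg, as seen after their values. Strong peaks for both factors thus lay nearest to genes listed at 0, such as *Krt73*, as well as to genes such as *Nup205*, a nuclear pore component with 29.8 to 67.9 FPKM across the 9 libraries.

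The T and Foxa2 summits of a shared peak lay close together. The overlap rule itself limits this distance, so it is given as a description. The median distance was 52 bp (interval of the median 49 to 56 bp, quartiles 22 and 115 bp, range 0 to 1337 bp). The distance was at most 10 bp in 175 shared peaks (12.6%), at most 50 bp in 672 (48.3%), at most 100 bp in 994 (71.5%) and at most 200 bp in 1225 (88.1%). The summits fell on the same base in 16. The Foxa2 summit lay at the higher coordinate in 692 and at the lower in 683, so neither side prevailed on the chromosome's own axis. The 348 shared peaks with the lowest smaller enrichment (1.62 to 5.35) had a median distance of 73.5 bp (56 to 85 bp). The 348 with the highest (8.23 to 32.1) had a median of 40.5 bp (37 to 47 bp), and these intervals do not overlap.

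**Figure D1:**
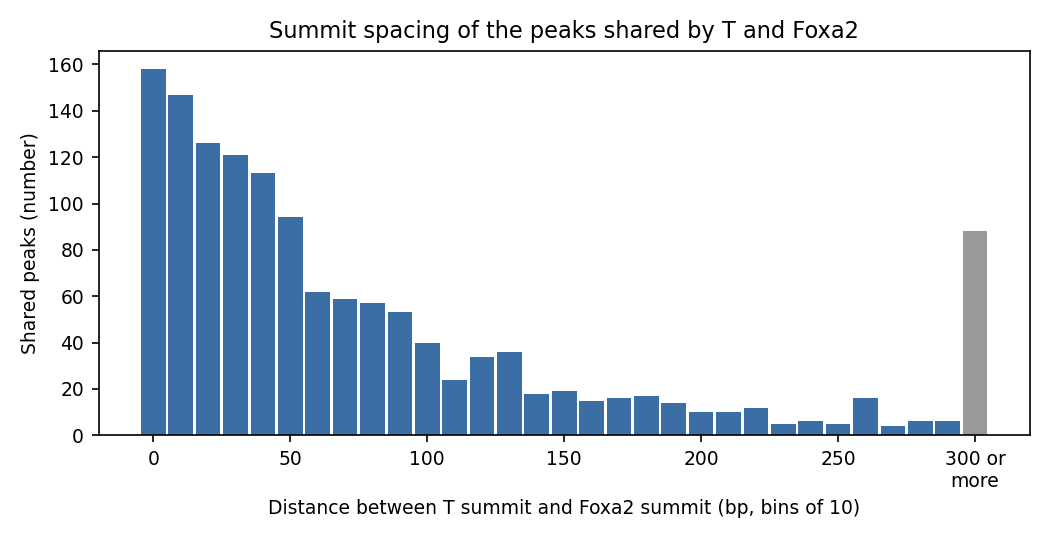
Number of shared peaks (vertical axis) by the distance between T and Foxa2 summits in bp (horizontal axis, bins of 10 bp named by their lower end, grey bar for 300 bp or more). The bars are highest at the shortest distances (158 peaks at 0 to 9 bp), and 994 of 1391 peaks lie at 100 bp or less.

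Members at notochord genes spanned this range. At *Noto*, the homeobox gene that marks the node and notochord, the peak at chr6:85415617-85416214 lay 7.95 kb upstream of the start, with summits 16 bp apart and enrichments of 16.1 for T and 9.88 for Foxa2. At *Foxa2* itself, 1 of 3 shared peaks covered the start region (chr2:148046311-148047038, summits 17 bp apart, 7.24 and 8.67). The other two lay 115 and 190 kb downstream, with summits 320 and 40 bp apart. At *Shh*, the hedgehog ligand of the notochord, 1 peak lay 7.88 kb downstream of the start (chr5:28459206-28459526, 4.35 and 7.73) with summits 124 bp apart, and another lay 240 kb upstream (12.1 and 11.0) with summits 38 bp apart. At *Nog*, a secreted BMP antagonist, 3 peaks lay 14.5 kb downstream and 167 and 175 kb upstream. The last of these, at chr11:89476904-89477465, carried the highest T enrichment among them, 23.2, with 13.2 for Foxa2.

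Shared peaks were mostly distant from gene starts. Their T summits lay within 5 kb of a start of any annotated gene, here called promoter, in 273 of 1391 (19.6%, 17.6 to 21.8%). Another 545 (39.2%) lay in introns and 24 (1.73%) in exons of protein-coding genes, 82 (5.90%) in other genes and 467 (33.6%) between genes. The promoter share was 6.74 percentage points below that of T-only peaks (26.4%, interval of the difference −9.07 to −4.29) and 2.63 points above that of Foxa2-only peaks (17.0%, 0.563 to 4.86). Within 1 kb of a start the gap to T-only peaks was wide as well, with 5.25% against 11.7% (difference −6.46 points, −7.83 to −4.92). The intron share exceeded that of T-only peaks (33.7%) by 5.48 points (2.65 to 8.36) and differed from that of Foxa2-only peaks (39.6%) by −0.449 points (−3.07 to 2.22). The share between genes differed from that of T-only peaks (33.7%) by −0.143 points (−2.88 to 2.67) and from that of Foxa2-only peaks (37.4%) by −3.83 points (−6.35 to −1.22).

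The median distance from a shared summit to the nearest protein-coding start was 65.3 kb (59.3 to 72.3 kb), against 46.2 kb for T-only and 65.7 kb for Foxa2-only peaks. It was within 50 kb in 604 (43.4%) and beyond 200 kb in 297 (21.4%). The summit lay upstream of that start in 580 and downstream in 811. By chromosome, the shared portion of T peaks was lowest on X, with 15 of 118 (12.7%). Shared peaks were seldom close to each other, as 15 of 1369 pairs of neighbouring shared summits lay within 5 kb and 99 within 50 kb.

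Compared with T-only peaks, shared peaks held forkhead words more often and T words less often. At the T summits, a forkhead word (TGTTTAC or TATTTAC, searched on both strands of the 101-base window) was present in 263 shared peaks (18.9%, 16.9 to 21.0%), against 3.71% of windows 10000 bp away. The share in T-only peaks was 9.10%, so shared peaks were 9.81 points higher (7.68 to 12.1). At the Foxa2 summits the word was present in 393 shared peaks (28.3%, away 3.71%) and in 17.9% of Foxa2-only peaks, a difference of 10.4 points (8.02 to 12.9). The T word GGTGTGA went the other way, with 83 shared peaks (5.97%, 4.84 to 7.34%, away 1.12%) against 9.43% of T-only peaks, a difference of −3.46 points (−4.84 to −1.90). At Foxa2 summits it was present in 4.17% of shared and 1.21% of Foxa2-only peaks, the latter near the 1.30% found away from peaks. The shorter GGTGTG went the other way there, with 10.6% of shared and 12.6% of Foxa2-only peaks. A word is an exact string of letters and not a measured binding site.

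A further T and a further forkhead word, named after their values were seen, followed the same pattern. GTGTGAA, which overlaps GGTGTGA by 6 letters, was present in 134 shared T summit windows (9.63%, away 1.91%) and 15.6% of T-only windows (difference −5.99 points, −7.74 to −4.08). TGTTTGC was present in 174 (12.5%, away 1.76%) and 5.11% (difference 7.40 points, 5.66 to 9.33). Among all words of 7 letters it had the largest excess over windows away at shared T summits, while GTGTGAA had the largest at T-only summits. With both T words and all 3 forkhead words counted at T summits, 45 shared peaks (3.24%) held both kinds, 128 (9.20%) a T word alone, 365 (26.2%) a forkhead word alone and 853 (61.3%, 58.7 to 63.8%) neither. In T-only peaks these shares were 2.48%, 16.3%, 11.5% and 69.7%. With GGTGTGA as the sole T word and TGTTTAC or TATTTAC as forkhead words, 15 shared peaks (1.08%) held both. With all the words, windows with both kinds differed by 0.755 points, with an interval (−0.168 to 1.89) that includes 0.

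**Figure D2:**
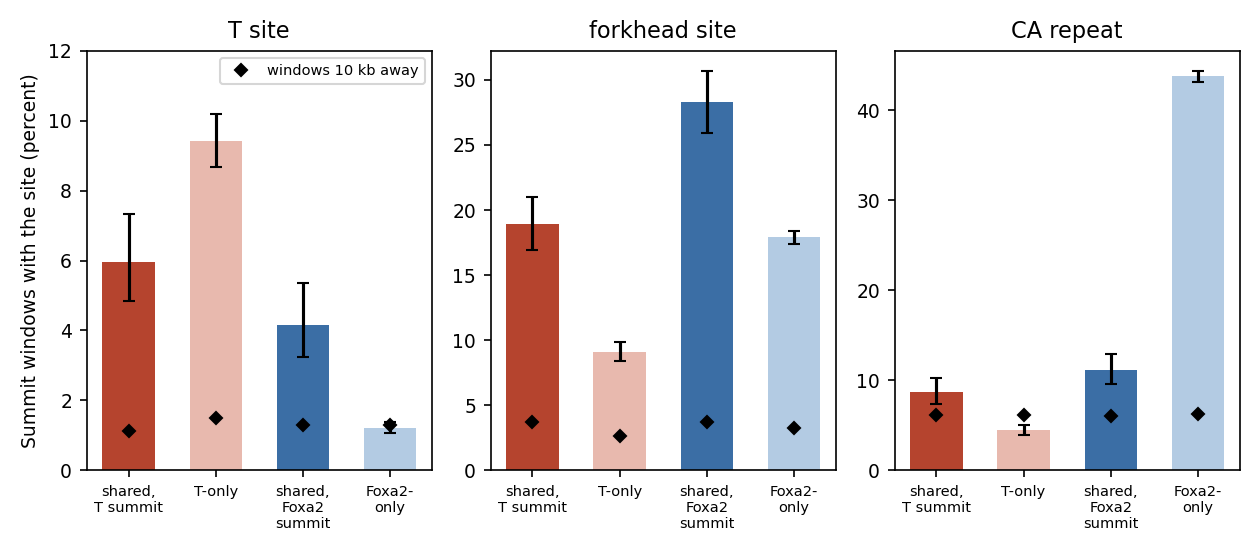
Percent of 101-base summit windows (vertical axes, from 0) that hold GGTGTGA (T site), TGTTTAC or TATTTAC (forkhead site) or ACACACA (CA repeat), for shared and single peaks. Bars show the share with its 95% Wilson interval and diamonds the share 10 kb away. Shared peaks reach 28.3% for the forkhead site at Foxa2 summits, and Foxa2-only peaks 43.8% for the CA repeat.

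Foxa2-only peaks were rich in CA repeats, which bears on every comparison with them. ACACACA was present in 43.8% of their windows, in 11.1% of shared Foxa2 summit windows and in 6.01 to 6.23% of windows away, and 41.6% of Foxa2-only windows were mostly repeat-masked, against 10.3% of shared ones. When windows with ACACACA were left out, a choice made after seeing the data, the forkhead share was 28.6% in 1236 shared peaks and 25.0% in 11976 Foxa2-only peaks. The difference fell to 3.62 points (1.05 to 6.32). That for GGTGTGA was 3.05 points (4.21% against 1.16%, 2.04 to 4.33). The shorter GGTGTG was then more frequent in shared peaks as well, by 2.57 points (9.14% against 6.57%, 1.02 to 4.36).

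The words were also placed differently around the summits. T words (either of both) occurred 6.11 and 4.96 times per 100 shared peaks in the 20-base bins just left and right of the T summit, and 1.73 and 2.16 times in the next bins outward. In T-only peaks the same bins held 7.71 and 9.68 words. Forkhead words (any of the 3) peaked at Foxa2 summits, with 14.3 and 11.6 per 100 peaks in the central bins. Around the T summits of the same peaks they were spread evenly, between 6.76 and 7.69 per 100 peaks in each bin from −60 to 59. Where a T word and a forkhead word both lay within 100 bp of the T summit, in 110 shared peaks, the nearest pair was 56 bp apart at the median (48 to 57 bp, range 7 to 143 bp). In the Efnb2 window printed above, both lay close to the T summit.

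**Figure D3:**
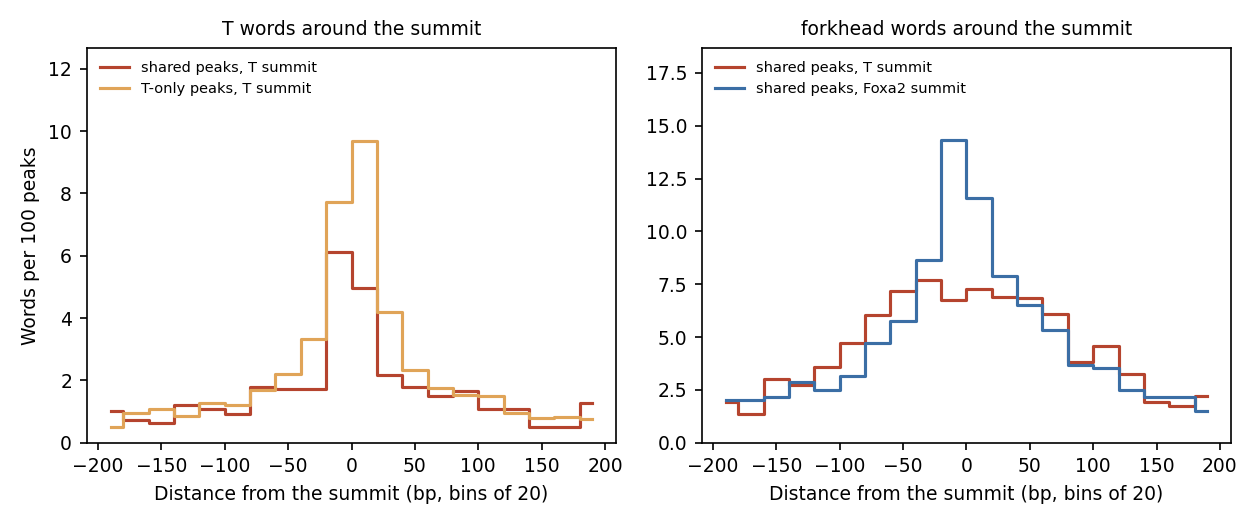
Words per 100 peaks (vertical axes) in bins of 20 bp around the summit (horizontal axes, bp), for T words (left) and forkhead words (right). Both T curves rise at the T summit, to 6.11 in shared and 9.68 in T-only peaks. Forkhead words rise to 14.3 at Foxa2 summits and stay between 6.76 and 7.69 within 60 bp of T summits.

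Words went with strength and spacing among the shared peaks. The 173 with a T word at the T summit had a median T enrichment of 9.17 (8.25 to 9.94), against 7.79 (7.57 to 8.12) in the 1218 without. Their summits lay further apart, with a median of 68 bp (59 to 85 bp) against 50.5 bp (47 to 54 bp). The 550 with a forkhead word at the Foxa2 summit had a median Foxa2 enrichment of 9.29 (8.94 to 9.86), against 8.00 (7.71 to 8.34) in the 841 without, while their T enrichment was alike (7.84 and 8.03). The forkhead share at Foxa2 summits was 35.9% in the weakest part of the shared peaks by the smaller enrichment and 44.8% in the strongest.

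The 1391 shared peaks were assigned to the protein-coding gene with the nearest start, which gave 1165 genes. Of these, 1111 were found in the FPKM table, and 66 peaks whose nearest gene was not found there were left out of the expression counts. This is 5.45% of the 20401 protein-coding genes that could be matched. T-only peaks were nearest to 18.2% and Foxa2-only peaks to 37.6% of them. One shared peak was assigned to each of 994 genes, 2 to 133, 3 to 30 and 4 or more to 8. A nearest start does not show that a peak acts on that gene.

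Several of the genes nearest to the most shared peaks encode cell surface or guidance proteins, which was seen and not tested. *Tle4*, a Groucho-type corepressor, had 8, spread from 305 kb downstream to 638 kb upstream of its start. Its FPKM was 90.9 (E8.5) and 52.9 (E9.5) in NotoP, 51.8 and 61.4 in MP, and 39.6 and 12.5 in trunk notochord cells, 19.3 in NMPdiff, 32.2 in NotoPdiff and 52.7 in MPdiff cells. *Tle4* was thus lower in NotoPdiff than in MPdiff cells (log2 difference −0.70). The genes *Efnb2*, *Flrt3*, *Lrmda*, *Pcdh7* and *Robo1* had 5 each, and *Negr1* and *Ntf3* had 4 each. *Efnb2*, an ephrin ligand, had 43.9 FPKM in NotoPdiff and 13.9 in MPdiff cells. In NotoP and MP cells it had 30.1 and 20.4 at E8.5, and 15.5 and 3.49 at E9.5. *Flrt3*, an adhesion molecule, had 46.6 and 11.4 FPKM in NotoPdiff and MPdiff cells. In NotoP and MP cells it had 48.9 and 5.21 at E8.5, but 33.8 and 19.9 at E9.5. *Robo1*, a Slit receptor, went the other way, with 7.67 in NotoPdiff and 22.8 in MPdiff cells. *Lrmda* was listed at 0 in all 3 cultures although 3 of its 5 peaks had T enrichments of 16.3 to 21.4. *Agap1* and *Atp10a* were the first by alphabet of 30 genes with 3 shared peaks, and their log2 differences were 0.40 and 0.62.

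Most of the listed notochord transcription factors had a shared peak, though often far from the start. Of 10, 7 (70.0%, against 5.45% of all genes) were nearest to at least 1 (*Noto*, *Foxa1*, *Foxa2*, *Lmx1a*, *Sox9*, *Sox5* and *Sox6*). A shared summit lay within 50 kb of the start in 2 of the 7. The span in which a start is the nearest was not taken into account for the lists. All 10 were also nearest to a T-only peak and 8 to a Foxa2-only peak, and *T*, *Mnx1* and *Foxj1* had T-only peaks and no shared peak. The study reports binding of both factors at *TNE2*, an enhancer of the *T* locus. The lack of a shared peak at *T* here holds only for called peaks assigned to the nearest start, and what accounts for it was not tested. Of the 7 with a shared peak, 5 were at least 3-fold higher in NotoPdiff than in MPdiff cells on the log2(FPKM + 1) scale. None was 3-fold lower. The 5 include *Noto*, a sort reporter, and *Foxa2*, which doxycycline induces, so the order of these genes follows from the design. The median log2 difference over the 10, which also include the sort reporter *T*, was 3.69, against 0 over all genes tested. Across all 20401 genes, 1.76% were 3-fold higher and 0.461% 3-fold lower in NotoPdiff than in MPdiff cells.

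*Noto* had 152 FPKM in the E8.5 and 164 in the E9.5 NotoP library, 27.5 and 20.8 in trunk notochord (E8.5 first here and in later pairs of embryonic values), 22.5 in NotoPdiff and 0.515 in NMPdiff cells, and was listed at 0 in both MP libraries and in MPdiff. Since *Noto* was a sort reporter, its order between NotoP and MP cells and between NotoPdiff and MPdiff cells follows from the gates. *Sox9*, a chondrogenic and notochord factor, had 3 shared peaks, 59.2 kb upstream and 152 and 308 kb downstream of its start. *Sox9* reached 47.1 FPKM in NotoPdiff, 1.56 in MPdiff and 1.69 in NMPdiff cells. In the embryo it had 51.9 and 30.0 in NotoP, 74.8 and 92.9 in trunk notochord, and 0.662 in MP cells at E9.5, and was listed at 0 in MP cells at E8.5. The notochord libraries were all above the MP libraries, with a log2 difference of 4.23 in culture and 4.22 at E9.5.

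*Foxa1*, the close relative of *Foxa2*, had 1 intronic shared peak in a neighbouring gene 146 kb downstream of its start, and 19.2 FPKM in NotoPdiff against 0.0955 in MPdiff cells (log2 difference 4.20). In the embryo *Foxa1* had 41.7 and 44.3 FPKM in NotoP, 44.2 and 88.0 in trunk notochord, and 3.26 and 0.287 in MP cells. *Lmx1a*, a LIM homeobox gene, had an intronic shared peak (chr1:167788960-167789412) and 9.31 FPKM in NotoPdiff against 0.0130 in MPdiff cells. *Lmx1a* had 45.2 and 42.8 in NotoP, 28.3 and 103 in trunk notochord, and was listed at 0 in both MP libraries. *Sox5* and *Sox6*, partners of *Sox9* in cartilage, were low in culture. *Sox6*, with 3 intronic shared peaks, had 3.13 FPKM in NotoPdiff and 1.12 in MPdiff cells but 21.6 and 39.8 in trunk notochord.

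Of 15 notochord signals and antagonists, 7 (46.7%, against 5.45% of all genes) were nearest to a shared peak (*Shh*, *Nog*, *Chrd*, *Slit2*, *Dkk1*, *Sema3c* and *Sema3e*). A shared summit lay within 50 kb of the start in 5. Of the 7, 5 were 3-fold higher in NotoPdiff than in MPdiff cells. *Shh* had 30.2 FPKM in NotoPdiff and was listed at 0 in MPdiff and NMPdiff cells. It had 161 and 178 in NotoP, 468 and 607 in trunk notochord, and 0.343 in MP cells at E9.5, and was listed at 0 in MP cells at E8.5. *Nog* had 40.1 FPKM in NotoPdiff, 1.83 in MPdiff and 1.16 in NMPdiff cells, and 75.1 and 37.2 in NotoP, 77.8 and 48.2 in trunk notochord, with 1.67 in MP cells at E9.5 and 0 listed at E8.5. Both genes were highest in notochord libraries, and *Shh* was higher in trunk notochord than in NotoP cells at both stages.

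*Chrd*, which encodes the BMP antagonist chordin, had a shared peak 3.17 kb upstream of its start (chr16:20729897-20730182, enrichments 5.28 and 11.8). Its FPKM was 28.5 in NotoPdiff and 0.186 in MPdiff, 37.1 and 10.6 in NotoP, and 6.72 and 0 in trunk notochord, so it was lower in trunk notochord than in NotoP cells at both stages. *Slit2*, a guidance ligand, had shared peaks 503 kb upstream and 20.8 kb downstream of its start, and 43.4 FPKM in NotoPdiff against 4.90 in MPdiff cells. *Slit2* had 119 and 141 in NotoP, 2.15 and 8.45 in MP, and 175 and 398 in trunk notochord. *Sema3e*, a semaphorin, had 15.8 FPKM in NotoPdiff and 0.969 in MPdiff cells, and an intronic peak 15.2 kb into the gene. *Dkk1*, a Wnt antagonist, had 8.73 and 14.7 FPKM, so it was not among the higher genes in culture, although it had 40.0 in NotoP and 10.8 in MP cells at E9.5.

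**Figure D4:**
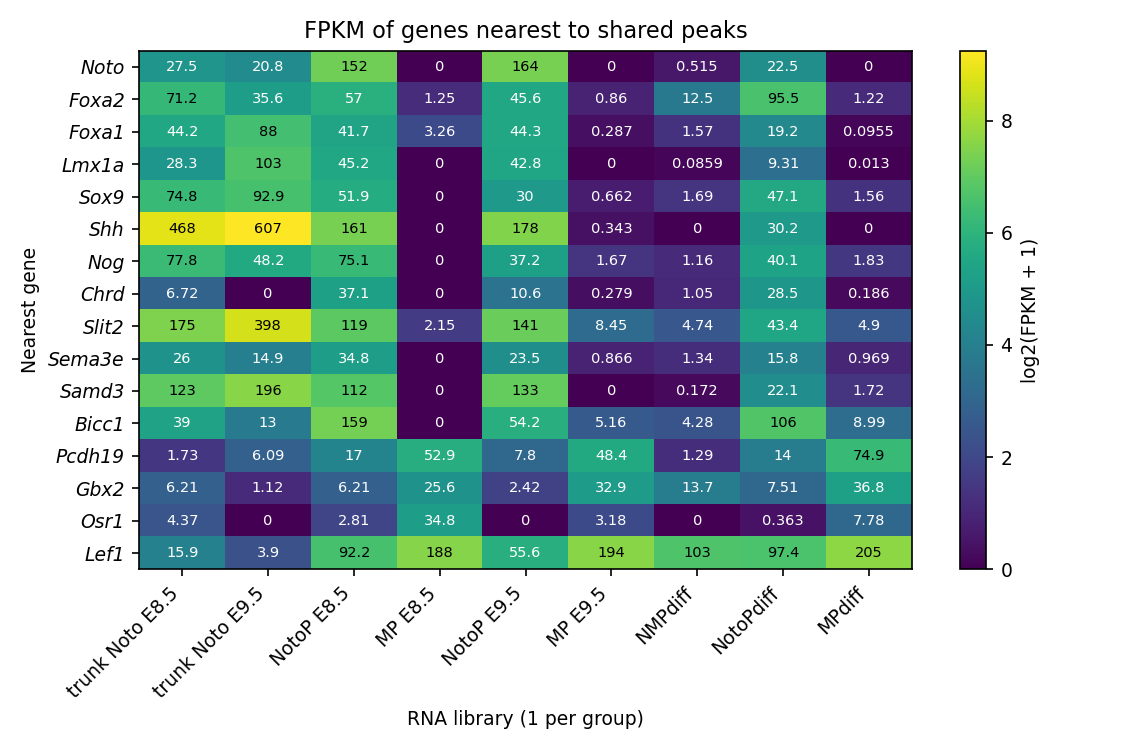
FPKM of 16 named genes nearest to shared peaks (rows) in the 9 RNA libraries (columns, 1 per group), with the FPKM printed in each cell and log2(FPKM + 1) as colour. The upper 12 genes are bright in trunk Noto, NotoP and NotoPdiff columns, as for Shh at 161 in NotoP E8.5, except Chrd at 0 in trunk Noto E9.5, and the lower 4 are brighter in MP and MPdiff than in the NotoP and NotoPdiff columns, as for Lef1 at 205 in MPdiff.

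Some listed members of the Hedgehog (17.6%), Wnt (33.3%) and BMP and Nodal (11.1%) pathways had a shared peak. Over all genes, 5.45% were nearest to a shared, 18.2% to a T-only and 37.6% to a Foxa2-only peak. Of 17 Hedgehog genes, 3 were nearest to a shared peak (*Shh*, *Gli3* and *Smo*), and *Shh* alone was 3-fold higher. *Smo*, the signal transducer, had 42.6 FPKM in NotoPdiff and 41.4 in MPdiff cells. Of 21 Wnt genes, 7 were (*Wnt5b*, *Wnt11*, *Lef1*, *Sp5*, *Rspo3*, *Prickle1* and *Prickle2*), with 1 higher and none lower by 3-fold. That gene was *Prickle2*, a planar cell polarity component, with 34.7 FPKM in NotoPdiff and 8.01 in MPdiff cells and an intronic peak whose summits lay 1 bp apart. *Lef1*, the Wnt effector, had 97.4 FPKM in NotoPdiff and 205 in MPdiff cells, and 55.6 and 194 in NotoP and MP cells at E9.5. *Sp5*, a Wnt target, had 3 shared peaks including 1 at its start (0.105 kb), and 74.8 and 39.1 FPKM in NotoPdiff and MPdiff cells. Of 18 BMP and Nodal genes, *Bmp2* and *Bmp7* had shared peaks, and *Bmp7* had 43.4 and 5.41 FPKM. None of the 17 Fgf genes was nearest to a shared peak, which in so short a list is close to the share over all genes. Of the 17, 8 were nearest to T-only and 14 to Foxa2-only peaks.

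The listed mesoderm genes had T-only peaks more often than shared peaks. Of 25 mesoderm and presomitic mesoderm genes, 20 were nearest to a T-only peak, against 18.2% of all genes. A shared peak was nearest to 3 of them (12.0%, against 5.45% of all genes), namely *Pcdh19*, *Osr1* and *Gbx2*. All 3 were 3-fold lower in NotoPdiff than in MPdiff cells. Of all 25 genes, 6 were 3-fold lower, and the median log2 difference over the 25 was −1.13. *Tbx6*, *Msgn1*, *Dll1*, *Mesp1* and *Mesp2* had T-only and no shared peaks. *Pcdh19*, a protocadherin gene, had 14.0 FPKM in NotoPdiff and 74.9 in MPdiff cells, 17.0 and 7.80 in NotoP, 52.9 and 48.4 in MP, 1.73 and 6.09 in trunk notochord and 1.29 in NMPdiff cells. *Gbx2*, a homeobox gene, had 7.51 and 36.8 in NotoPdiff and MPdiff, 6.21 and 2.42 in NotoP, 25.6 and 32.9 in MP, 6.21 and 1.12 in trunk notochord and 13.7 in NMPdiff cells. Both were lower in every notochord library than in the MP library of the same stage. *Osr1*, a zinc finger gene of intermediate mesoderm, had 0.363 FPKM in NotoPdiff and 7.78 in MPdiff cells. The shared peak nearest to *Gbx2* lay 45.2 kb downstream of its start in an intron of *Agap1*, with enrichments of 21.7 for T and 10.3 for Foxa2.

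In the remaining lists, 0 to 31.2% of the genes had a shared peak, against 5.45% of all genes. Of 14 sheath and matrix genes 2 had a shared peak (*Col9a1* and *Lamc1*), of 17 caudal progenitor genes 2 (*Sp5* and *Lin28b*), of 10 pluripotency genes 1 (*Klf4*) and of 8 blood genes none, and none of these passed 3-fold in culture. Of 17 endoderm genes, 3 had one (*Sox17*, *Gata6* and *Otx2*), and of these *Sox17* alone was 3-fold higher, with 7.46 FPKM in NotoPdiff and 0.545 in MPdiff cells. *Sox17* was listed at 0 in both trunk notochord libraries. Of all 17 endoderm markers, 9 were 3-fold higher in NotoPdiff than in MPdiff cells and none lower. Their median log2 difference was 1.93 against 0 over all genes. The list includes the keratin genes *Krt18* and *Krt19*, which were high in trunk notochord too (627 and 217 FPKM, and 285 and 125). *Gata6* had 1.08 FPKM in NotoPdiff and 3.51 in MPdiff cells, and *Otx2* 0.742 and 0.701. The higher markers thus do not stand for endoderm alone, and their part in the culture differences was not tested. Of 16 neural genes, 5 had one, *Sox2* and *Irx3* among them, and none of the 5 passed 3-fold. *Sox2* had 9.24 and 3.49 FPKM in NotoPdiff and MPdiff, and 17.3 and 10.5 in NotoP cells. Of 15 node cilia genes in the table, 3 had one (*Rfx3*, *Dnah11* and *Noto*), and *Noto* alone was 3-fold higher.

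Among genes with a shared summit within 50 kb, listed or not, the largest culture differences were those of *Foxa2* (95.5 FPKM in NotoPdiff and 1.22 in MPdiff, log2 difference 5.44) and *Selenop*, listed as *Sepp1*. *Selenop*, which encodes a secreted selenium carrier, had 224 FPKM in NotoPdiff and 5.76 in MPdiff, 118 and 55.8 in NotoP, 12.8 and 3.38 in MP, and 57.4 and 17.6 in trunk notochord cells. *Shh*, *Chrd*, *Noto*, *Ppp1r1a*, *Nog*, *Cd109*, *A4galt* and *Bicc1* followed. *Bicc1*, an RNA-binding protein gene, had 106 FPKM in NotoPdiff and 8.99 in MPdiff, and 159 and 54.2 in NotoP cells. *A4galt* was less alike between the systems, with 11.6 and 0.144 FPKM in culture but 3.16 in NotoP cells at E8.5 and 0 listed at E9.5. The lowest were *Hs3st3b1*, *Nrp1*, *Lix1*, *Pcdh19* and *Gbx2*. *Hs3st3b1*, a heparan sulphate sulphotransferase gene with 2 upstream shared peaks, had 1.90 FPKM in NotoPdiff and 21.1 in MPdiff cells. In NotoP and MP cells it had 1.26 and 4.75 at E8.5, but 7.40 and 4.04 at E9.5. In the embryo the largest differences, by the smaller of both stages, belonged to *Noto*, *Shh*, *Samd3*, *Foxa2* and *Slit2*. *Samd3*, a little-studied gene with a shared peak 1.36 kb upstream of its start (enrichments 20.2 and 13.4), had 112 and 133 FPKM in NotoP and 123 and 196 in trunk notochord. It had 22.1 in NotoPdiff and 1.72 in MPdiff cells, and was listed at 0 in both MP libraries.

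Counted over all 1111 genes nearest to a shared peak, 74 (6.66%, 5.34 to 8.28%) were 3-fold higher in NotoPdiff than in MPdiff cells and 22 (1.98%) 3-fold lower, against 1.76% and 0.461% of all genes. Both directions were therefore above the background. Genes nearest to a shared peak also had higher levels, with a median of 4.89 FPKM in NotoPdiff cells against 2.00 over all genes. With a pseudocount of 1, genes near 0 in both libraries cannot pass 3-fold, and the part of level in the excess was not tested. The 74 include *Noto* and *Foxa2*, whose order follows from the gates and the induction. The closest comparison group was the 2025 genes with both a T-only and a Foxa2-only peak but no shared one, of which 4.44% were higher, 2.22 points less (0.566 to 4.03), and 1.09% lower. Genes with T-only peaks alone gave 1.90%, those with Foxa2-only peaks alone 1.85% and those with none 0.763%. The median log2 difference was small in all groups, 0.08 for shared and 0 for all genes. It was 0.13 in the 519 shared genes that also had a T-only and a Foxa2-only peak. In the 157 with shared peaks alone it was 0, and in the closest group 0.03. Differences above 0 were found in 47.8% of the 157 and in 52.5% of the closest group. The part of the other peaks in the excess was not tested. Genes near shared peaks have large surroundings, with a median span of 236 kb in which their start is the nearest, against 204 kb in the closest group and 47.6 kb overall. Among genes with spans of 112 to 3910 kb, the share was 6.50% (53 of 815) against 4.30%.

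Embryonic cells gave the same order of groups. Of the 1111 genes, 61 (5.49%, 4.30 to 6.99%) were 3-fold higher in NotoP than in MP cells at both stages and 5 (0.450%) lower, against 1.46% and 0.255% of all genes. The closest group had 3.01%, a difference of 2.48 points (1.02 to 4.12). The 61 include the sort reporters *Noto* and *Foxa2*. By stage, 17.7% were higher and 3.87% lower at E8.5 (all genes 9.80% and 4.38%), and 8.10% and 1.98% at E9.5 (all genes 2.84% and 1.15%). The E8.5 comparison rests on the MP library with the most genes listed at 0. Of the genes with shared peaks alone, 38.2% were above 0 at E8.5 and 35.7% at E9.5, against 46.9% and 43.7% in the closest group. In span classes the result was not uniform, since genes with spans of 47.6 to 112 kb had 2.19% (4 of 183) against 4.14% in the closest group.

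Against NMPdiff cells, 7.83% of the genes were higher in NotoPdiff and 1.17% lower (all genes 1.47% and 0.863%), and MPdiff cells had 4.41% higher and 1.89% lower (all genes 1.01% and 1.62%). NotoPdiff and MPdiff cells here share their comparison library. Between trunk notochord and NotoP cells, 6.66% were higher and 6.21% lower at E8.5 (all genes 4.78% and 4.52%), and 8.46% and 7.20% at E9.5 (all genes 4.68% and 5.59%). These trunk shares differed from those of the closest group by 0.290 to 1.03 points, with intervals that include 0.

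**Figure D5:**
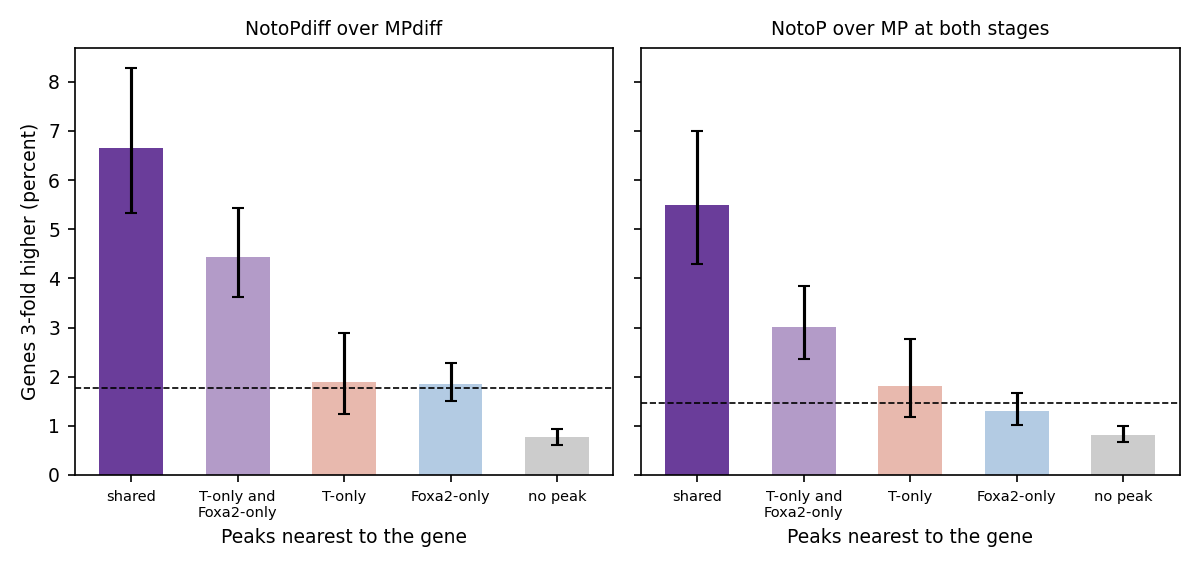
Percent of genes at least 3-fold higher (vertical axes, from 0, with 95% Wilson intervals) by the peaks nearest to the gene, in culture (left) and in the embryo at both stages (right). The dashed line is the share of all protein-coding genes. Genes nearest to shared peaks have the highest bars, 6.66% and 5.49%.

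In culture the share of 3-fold higher genes was larger nearer to the start and with more shared peaks, although neighbouring intervals overlap. It was 13.1% (14 of 107, 7.96 to 20.8%) where a shared summit lay within 5 kb of the start, 7.31% from 5 to 50 kb, 5.61% from 50 to 200 kb and 3.45% beyond. In the embryo the same classes gave 2.80%, 6.39%, 5.61% and 4.60%, without that order. Genes with 1 shared peak had 5.78% in culture, those with 2 had 8.94%, and those with 3 or more had 21.6% (8 of 37, 11.4 to 37.2%). *Foxa2*, which doxycycline induces, counts in that last class and in the class within 5 kb. In all, 29 of the genes (2.61%) were higher in culture and at both embryonic stages, against 0.515% of all genes. The 29 count *Noto* and *Foxa2*, which the design set higher. Named after their values were seen, they include the factors *Foxa1*, *Foxa2*, *Lmx1a*, *Noto*, *Pou4f1* and *Sox9*, the signals and antagonists *Bmp7*, *Chrd*, *Nog*, *Sema3e*, *Shh* and *Slit2*, the Wnt and polarity genes *Fzd6* and *Prickle2*, and the cytoskeletal genes *Cobl*, *Myl9* and *Tmod2*. *Cobl*, an actin nucleator, had 35.4 FPKM in NotoPdiff and 0.958 in MPdiff, 51.0 and 46.4 in NotoP, and 59.7 and 115 in trunk notochord cells. The cell cycle inhibitor *Cdkn1c* had 69.7 and 19.5 FPKM in NotoPdiff and MPdiff, 99.5 and 149 in NotoP, 6.81 and 14.4 in MP, and 256 and 185 in trunk notochord cells.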

How the data were processed

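The series holds 21 samples with 1 library per group. The 2 ChIP-seq peak lists and 9 RNA-seq columns were used, 0 columns were left out, and the other 10 samples were not used here. The submitters' processing notes name Bowtie 1.2.2 and 1.3.1, TopHat2 2.1.1, Cufflinks 2.2.1, MACS3 3.0.0b1 and bedtools 2.23.0, on mm10. FPKM values were computed by the authors after alignment and removal of duplicate molecules, and are scaled by length and depth. Peaks were called by the authors for each library, and the deposited lists give fold enrichment, a ratio to local background, and −log10 q, whose smallest value is 1.01. The control library of the calls is not given in the sources used here.

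A T peak that shared 1 bp or more with a Foxa2 peak was a member, paired with the partner of largest overlap. Places and starts came from GENCODE M21, and of 21924 protein-coding symbols 20401 were matched to the FPKM table, 747 by an older symbol. Differences are of log2(FPKM + 1) with a pseudocount of 1, and a gene was counted from 3-fold on. Words were searched on both strands in windows of 101 bp and in windows 10000 bp away. Shares have Wilson intervals at 95%. No count model or replicate test was possible. Scripts were tested on simulated data. The members and gene lists were chosen with earlier results of these data known. Genes named are listed genes nearest to a shared peak, the genes at the 10 shared peaks with the largest smaller enrichment (given after leaving out pileups), the 10 genes with the most shared peaks and, within 50 kb, the 10 largest and 5 smallest culture differences and the 5 largest embryonic ones. Other names were chosen after their values were seen. Alternatives changed the overlap, list lengths, windows, words, pseudocount, fold, gene assignment and scaling. Calculations used scipy 1.17.1, pandas 2.3.3 and numpy 2.4.6 in Python 3.11.15, with samtools 1.23.1 and pysam 0.24.0 for sequences and matplotlib 3.10.9 for plots.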

Additional observations from a re-analysis of the deposited data

How the results depend on the processing

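Of 98 alternative values over 27 settings, 61 stayed within the interval of the reported value (for the number of peaks, within 1.5 times), and 37 did not. They were run on values of the shared peaks, and not on the differences from T-only or Foxa2-only peaks. With the Foxa2 list reduced to the length of the T list by smallest q, 669 shared peaks were left, with 37.7% inside genes, a summit distance of 48 bp, forkhead words in 32.0% and 8.70% of genes higher in culture. Keeping summits within 100 bp gave a distance of 36 bp. Promoters of 1 kb held 5.25% (48.0% then inside genes), and protein-coding starts alone 9.35%. Windows of 25 bp on each side gave T, forkhead and both words in 4.10%, 18.3% and 0.144%, and of 100 bp in 8.84%, 38.2% and 3.24%, against 5.97%, 28.3% and 1.08% as reported. A T word of 8 bases was found in 2.66% and of 6 bases in 12.2% (both words 1.94%), TGTTTAC alone in 16.9%, and, added after seeing the data, GTGTGAA in 9.63% and forkhead words with TGTTTGC in 39.5%. The gene shares leaned on the pseudocount. Shares over all genes are not given for the other pseudocounts, for 2-fold or with 1 FPKM required. The excess over all genes therefore cannot be read from the values at these settings. With 0.1 the median log2 difference was 0.128, with 14.0% higher in culture and 10.1% in the embryo, with 0.5 the culture share was 9.45%, and with 5 the values were 0.036, 2.88% and 1.89%. Requiring 1 FPKM gave 0.228, 9.48% and 7.53%, starts within 50 kb gave 8.44% in culture, 2-fold gave 14.4% and 10.4%, NMPdiff as comparator gave a median of 0.124, and E8.5 or E9.5 alone gave 17.7% and 8.10%. Settings that select other peaks, words or genes move these values by construction.

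Leaving out a replicate was not possible with 1 library per group. No paired analysis was possible because each group has 1 library and no result comes from a replicated test. FPKM keeps no counts, so low genes cannot be given a counting error. Rescaling libraries by the median of ratios moved culture differences by 0.02 on the log2 scale.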
